A study of Mus musculus with 15 samples.

Results

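The messenger RNA of 10 angiogenic and endothelial genes was followed in the gastrocnemius of aged mice: Vegfa, Vegfb, Kdr, Flt1, Angpt1, Tek, Pecam1, Cdh5, Nos3 and Hif1a. These genes were listed by name and not by any measured value, though earlier results of these data were known when they were chosen. They were taken by symbol from the 55450 genes of the deposited count table, and each symbol matched 1 Ensembl gene. All 10 were among the 16920 genes that passed the filter on low counts and were tested. Bulk RNA sequencing had been done on 15 female C57BL/6JN mice older than 17 months, which had been given a Low or a High frailty mark from body weight, a health deficit index and performance tests. The Low mice, labelled robust, comprised 4 sedentary Low Control and 4 Low Run mice, and the High mice, labelled frail, comprised 3 High Control and 4 High Run mice. Run mice had completed a pair of bouts on a treadmill tilted downward by 22 degrees and set to 13 m/min, with muscle taken 24 h later. The labels name no transgene or drug, and each library came from 1 mouse, from a piece of 1 whole muscle. Because frailty was assigned from the animals' own measurements, the Low and High groups differ in more than 1 trait at once.

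Skeletal muscle is fed by a dense capillary network, and muscle fibres themselves secrete VEGF-A. VEGF-A acts on endothelial cells mainly through the receptor tyrosine kinase VEGFR2, while VEGFR1 binds VEGF-A and VEGF-B tightly and signals weakly, so that it can act as a decoy. Angiopoietin-1, made largely by the cells that wrap vessels, activates the endothelial receptor Tie2 and favours quiescent, tight vessels. Hypoxia-inducible factor 1 alpha is controlled mostly by breakdown of its protein in the presence of oxygen, so its messenger RNA is no measure of its activity. In bulk tissue, fewer endothelial cells and less RNA per endothelial cell cannot be told apart.

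The ligand genes are Vegfa (ENSMUSG00000023951, chr17:46016993-46032369, minus strand, build GRCm38), the main growth signal for capillaries, and Vegfb (ENSMUSG00000024962, chr19:6982473-6987651, minus strand), a relative linked to fatty acid uptake and vessel survival. The receptor genes are Kdr (ENSMUSG00000062960, chr5:75932827-75978458, minus strand), which encodes VEGFR2, and Flt1 (ENSMUSG00000029648, chr5:147561604-147726011, minus strand), which encodes VEGFR1 and its soluble form. The Tie2 arm holds Angpt1 (ENSMUSG00000022309, chr15:42424723-42676977, minus strand) and Tek (ENSMUSG00000006386, chr4:94739289-94874976, plus strand), which encodes Tie2. Pecam1 (ENSMUSG00000020717, chr11:106654217-106750628, minus strand) and Cdh5 (ENSMUSG00000031871, chr8:104101625-104144511, plus strand) encode CD31 and VE-cadherin, adhesion proteins of endothelial junctions. CD31 is also made by platelets and leukocytes, whereas VE-cadherin is largely restricted to endothelium. The remaining genes are Nos3 (ENSMUSG00000028978, chr5:24364810-24384474, plus strand), the endothelial nitric oxide synthase, and Hif1a (ENSMUSG00000021109, chr12:73901375-73947530, plus strand). Counts of whole genes do not separate the spliced forms of Vegfa or the soluble and membrane forms of Flt1.

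RefSeq start sites were matched for 6 of the 10 genes (Vegfa, Vegfb, Kdr, Flt1, Tek and Hif1a), and those of Angpt1, Pecam1, Cdh5 and Nos3 were not matched. The 250 bases before the start are shown for Vegfa, Kdr and Flt1, the ligand and its receptors, and for Hif1a, whose level followed that of Vegfa most closely among the gene pairs tested across mice. All are given 5′ to 3′ on the strand of the gene, in build GRCm38.p6. In Vegfa (chr17:46032378-46032627, minus strand), Kdr (chr5:75978456-75978705, minus strand) and Flt1 (chr5:147726012-147726261, minus strand), capitals mark the letters GGAA or their reverse complement TTCC, the core bound by ETS factors such as those active in endothelium. In Hif1a (chr12:73907617-73907866, plus strand), capitals mark ACGTG or CACGT, the core of the hypoxia response element.
Vegfa: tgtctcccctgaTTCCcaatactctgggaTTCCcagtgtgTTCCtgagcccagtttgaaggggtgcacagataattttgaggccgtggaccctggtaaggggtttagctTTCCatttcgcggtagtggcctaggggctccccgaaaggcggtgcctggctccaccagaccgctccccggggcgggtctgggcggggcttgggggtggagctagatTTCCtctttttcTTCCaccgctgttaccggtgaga
Kdr: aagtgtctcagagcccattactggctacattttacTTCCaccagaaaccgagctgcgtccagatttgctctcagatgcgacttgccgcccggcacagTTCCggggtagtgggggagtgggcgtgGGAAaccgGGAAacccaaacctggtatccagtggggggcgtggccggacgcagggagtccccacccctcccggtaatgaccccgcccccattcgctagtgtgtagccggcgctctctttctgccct
Flt1: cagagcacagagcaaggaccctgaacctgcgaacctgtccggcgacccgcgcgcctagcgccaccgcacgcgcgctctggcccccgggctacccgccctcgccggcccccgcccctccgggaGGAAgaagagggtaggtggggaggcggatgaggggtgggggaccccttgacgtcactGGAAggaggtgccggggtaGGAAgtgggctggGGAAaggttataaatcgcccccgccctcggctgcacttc
Hif1a: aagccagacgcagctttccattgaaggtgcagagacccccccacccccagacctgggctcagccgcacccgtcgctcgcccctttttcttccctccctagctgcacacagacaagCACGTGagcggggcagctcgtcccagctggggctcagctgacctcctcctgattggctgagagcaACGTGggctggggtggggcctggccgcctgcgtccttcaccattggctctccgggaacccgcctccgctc

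The ETS core was found at 6 positions of the Vegfa window, at 4 of the Kdr window and at 4 of the Flt1 window, against a median of 3 in 32851 RefSeq windows of the same length. The other windows of the group were at or below that median, with 3 positions before Hif1a, 2 before Tek, 1 before Vegfb and 2 before a second RefSeq start of Vegfa, inside the gene. These 4 letters are common, and 93.4% of all windows held at least 1 match. The hypoxia core was matched 3 times before Hif1a, 2 of these being the overlapping strands of the palindrome CACGTG, and it was absent from the windows printed for Vegfa, Kdr and Flt1. Of all windows, 16.6% held that core. The second start of Vegfa had 1 match in its own 250 bases. The Hif1a window lies inside the annotated gene, before the start of a shorter transcript, and the Kdr window overlaps the first bases of the annotated first exon. A match describes letters only, and its absence concerns only this window.

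The total count per mouse ran from 19395125 to 30699216. Single genes ran from 149 counts, for Angpt1 in Low Control mouse D9, to 6654, for Vegfa in the same mouse, so that counting error was small beside the spread between mice. Coefficients of biological variation in the edgeR fit ran from 0.176 for Pecam1 to 0.264 for Angpt1, with a common value of 0.266 over all genes. Muscle fibre genes summed to between 114400 and 178700 CPM (counts per gene scaled to the same library total) in every mouse, as the tissue label says, and all 22 further endothelial markers were detected and tested. Mice D9 (Low Control) and D62 (High Run) stood apart on the first principal component of all genes, at −90.3 and −58.1 where the other 13 mice lay between −19.7 and 27.8. For the 10 genes, each value for running is also given as its range when single mice of the groups compared were left out in turn, and some values also without D9 and D62 together. Mice D57 and D68 (Low Run) and D53 (High Run) had the highest values of the second component, 34.7, 44.0 and 43.1, against −25.2 to 17.2 elsewhere.

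Levels per length were compared as RPKM, the CPM divided by exon length in kilobases, averaged over the 15 mice. Vegfb was highest at 62.6 RPKM, followed by Vegfa at 42.9, Cdh5 at 17.9 and Pecam1 at 13.1. Flt1 stood at 6.71 RPKM, Hif1a at 4.53, Tek at 4.16, Nos3 at 4.11, Kdr at 3.49 and Angpt1 at 2.62. Both VEGF ligand genes were thus listed above every receptor and junction gene of the group. Only Vegfa and Cdh5, among neighbours in this order, had ranges over mice that did not overlap. Vegfb exceeded Vegfa in 13 of 15 mice, Cdh5 exceeded Pecam1 in 14, and Pecam1 exceeded Flt1 and Flt1 exceeded Hif1a in all 15. Hif1a, Tek, Nos3 and Kdr were close, since Hif1a exceeded Tek in 8 mice, Tek exceeded Nos3 in 10 and Nos3 exceeded Kdr in 9. Kdr exceeded Angpt1 in 12 of 15 mice. Between genes, these RPKM depend on the exon length taken, here the union of all annotated exons.

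**Figure D1:**
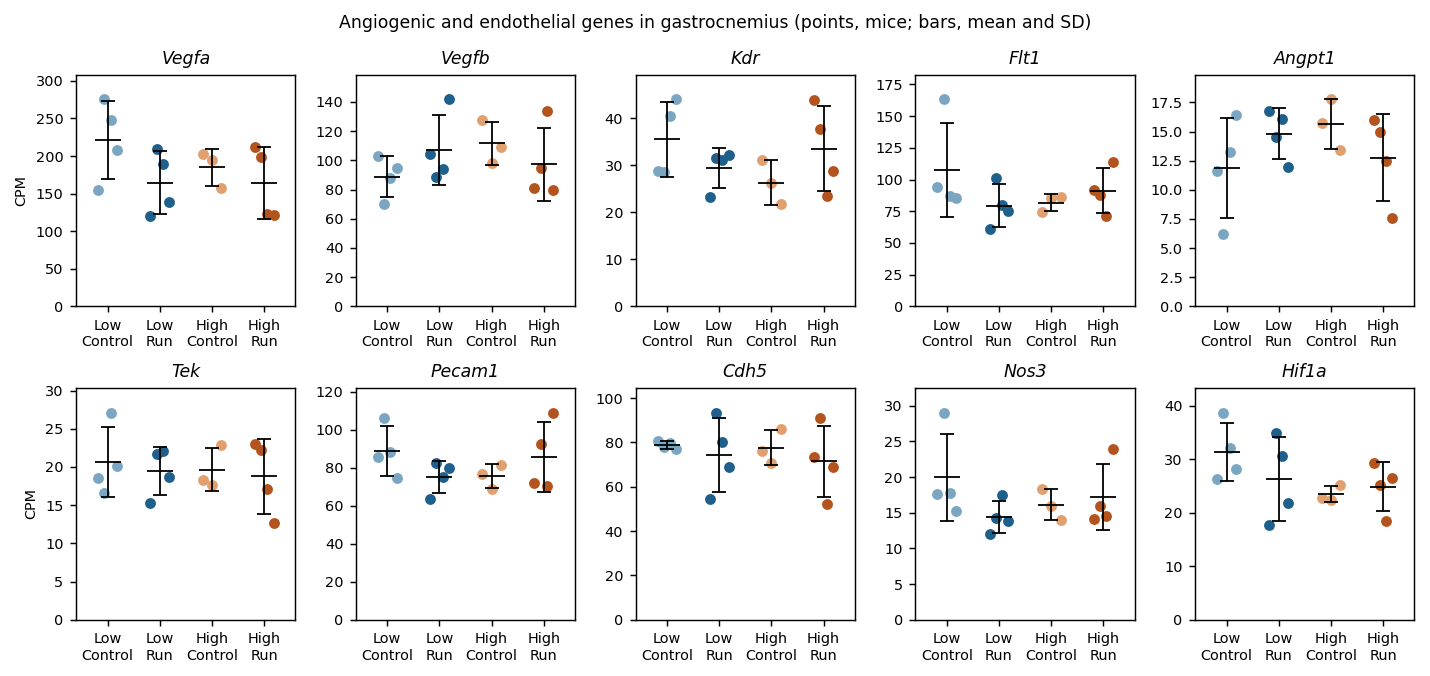
Level of each of the 10 genes in CPM (vertical axes, starting at 0) in the mice of the 4 groups; points are mice and bars the mean and SD (n = 4, 4, 3 and 4). The groups overlap in every gene and comparison except Hif1a in High Control against Low Control, and single high points in Low Control set the means of Flt1 and Nos3 apart from their other mice.

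No gene of the group passed the test in any comparison. By edgeR's quasi-likelihood test with Benjamini-Hochberg adjustment over all genes at a false discovery rate (FDR) of 0.1, 0 of the 10 genes were called for Low Run against Low Control and 0 for High Run against High Control. The share called among all 16920 genes was also 0% in each of these comparisons. Beside 0 calls for the Frailty × Run interaction, for High Control against Low Control, for High Run against Low Run and for the run main effect, the share of all genes called was again 0%. DESeq2 and limma voom with sample quality weights likewise called 0 of the 10 in every comparison. At an unadjusted p under 0.05, 1 of the 10 genes, Nos3, was lower in Low Run than in Low Control mice, where 13.4% of all genes passed that level and 7.52% did so in the lower direction. None of the 10 reached that level in the other comparisons, where the share of all genes was 5.18% for High Run against High Control, 7.93% for the interaction, 5.86% for High against Low Control, 2.51% for High against Low Run and 8.63% for the main effect. Mice of different groups overlapped in all 10 genes for Low Run against Low Control, where 3.35% of all genes were higher and 3.59% lower without overlap, and for High Run against High Control, with 3.47% and 3.6%. The same held for High Run against Low Run, with 0.721% and 0.774%. In High Control against Low Control, where 5.13% of all genes were higher and 5.27% lower without overlap, 1 of the 10, Hif1a, was lower. The intervals are wide. For Low Run against Low Control the 95% interval of Vegfa reached a log2 fold change of −0.92, and that of Angpt1 reached 0.88.

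The signs of the log2 fold changes were counted over the 10 genes, none of them called. In Low Run against Low Control, 8 of the 10 had a negative and 2 a positive log2 fold change, with a median of −0.25, where the median over all genes tested was 0.02 and 48.1% of them were negative. In High Run against High Control, 5 were negative and 5 positive, with a median of 0.01 against 0.05 over all genes. In the interaction, the difference between these responses, 7 were positive and 3 negative, with a median of 0.30 against 0.03. Sedentary High Control mice listed 8 of the 10 lower than Low Control mice, with a median of −0.25 against −0.02. Low Run and High Control were each compared with the same Low Control mice, and the interaction uses all groups, so these counts are not independent. The running comparisons in Low and in High mice share no mouse. Without D9 and D62 the counts of lower and higher genes were again 8 and 2 in Low Run, with a median of −0.16, 8 and 2 in High Control against Low Control, with a median of −0.14, and 7 positive and 3 negative in the interaction, with a median of 0.19. Other mice moved the counts more. Without D57, Low Run had 6 genes lower and 4 higher, with a median of −0.14, since Tek and Cdh5 turned positive, and without D11 it had 7 lower and 3 higher. In High Run the split went from 6 lower and 4 higher without D49 (median −0.07) to 4 lower and 6 higher without D53 (median 0.08). In High Control against Low Control it was 6 lower and 4 higher without D25 and 7 and 3 without D11. The median of the interaction ran from 0.16 without D57 to 0.44 without D61.

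Vegfa, the principal signal for capillary growth, was expressed in Low Control mice at 155 CPM (D8), 275 (D9), 248 (D11) and 207 (D98). Low Run mice had 121 (D57), 209 (D61), 189 (D66) and 139 CPM (D68). The groups overlapped, with the 2 highest mice in Low Control and the 2 lowest in Low Run. The mean was 221 ± 52.3 CPM (SD, n = 4) in Low Control and 165 ± 41.5 in Low Run. The log2 fold change was −0.43 (SE 0.23, 95% interval −0.92 to 0.06, FDR 0.403 in edgeR), and the exact two-sided permutation test over all 70 arrangements of the mice gave p = 0.171, where the smallest possible is 0.0286.

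High Control mice had 203 (D23), 194 (D25) and 158 CPM (D67) of Vegfa. High Run mice comprised a pair of high values, 212 (D49) and 199 (D52), and a pair of low ones, 123 (D53) and 122 CPM (D62). Against High Control this was a log2 fold change of −0.17 (SE 0.25, interval −0.70 to 0.36, FDR 0.968). Neither the High Control values (log2 fold change −0.26 against Low Control) nor the High Run values (−0.004 against Low Run, interval −0.49 to 0.49) stood outside the Low mice. Pooled over frailty, the run main effect was −0.30 (SE 0.17, FDR 0.638), and with voom it was −0.10. With single mice left out, the Low value ran from −0.57 (without D61) to −0.30 (D57), the High value from −0.32 (D49) to −0.055 (D53), and the value for High Control against Low Control from −0.40 (D8) to −0.14 (D9). The main effect ran from −0.38 (without D49) to −0.24 (D57), and was −0.18 without D9 and D62 together.

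Vegfb listed in the opposite direction to Vegfa in Low mice. Low Control mice had 103 (D8), 69.8 (D9), 88.2 (D11) and 94.6 CPM (D98), and Low Run mice had 105 (D57), 88.8 (D61), 93.8 (D66) and 142 (D68). The highest value of all belonged to D68 and the lowest to D9, and the groups overlapped. For running in Low mice the log2 fold change was 0.27 (SE 0.19, interval −0.14 to 0.68, FDR 0.497). High Control mice had 128 (D23), 98.3 (D25) and 109 CPM (D67), against 81.1 (D49), 94.9 (D52), 133 (D53) and 79.4 (D62) in High Run, so that 3 of 4 High Run mice lay below all High Control mice and the fourth above them. The log2 fold change was −0.20 (SE 0.21, FDR 0.965), and the interaction was −0.47 (SE 0.28, interval −1.07 to 0.13, FDR 0.613). Leaving out single mice moved the Low value between 0.10 (without D68) and 0.35 (D8) and the High value between −0.39 (D53) and −0.09 (D23), and the interaction was −0.28 without D9 and D62.

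Kdr, the gene of the main signalling receptor, was listed lower after running in Low mice and higher in High mice. Low Control mice had 28.8 (D8), 28.7 (D9), 40.6 (D11) and 44.0 CPM (D98), and Low Run mice had 23.2 (D57), 31.6 (D61), 31.03 (D66) and 32.1 (D68). In High mice, controls had 31.1 (D23), 26.1 (D25) and 21.7 CPM (D67), and Run mice had 43.9 (D49), 37.7 (D52), 23.5 (D53) and 28.9 (D62). In Low mice the upper pair of controls lay above every Run mouse, and in High mice a pair of Run mice lay above every control, with overlap in each case. Running was listed with a log2 fold change of −0.27 (SE 0.21, interval −0.70 to 0.17, FDR 0.529) in Low and 0.35 (SE 0.22, interval −0.13 to 0.82, FDR 0.956) in High mice. The interaction was 0.62 (SE 0.30, interval −0.03 to 1.26, FDR 0.600), with an exact permutation p of 0.0976 over 2450 arrangements. Without D9 and D62 it was 0.77 (FDR 0.984 in edgeR), with voom it was 0.86 (adjusted p = 0.340), and with length and GC offsets it was 0.38. Over single mice left out, the Low value lay between −0.37 (without D9) and −0.15 (D98) and the High value between 0.18 (D49) and 0.48 (D53), and with the offsets the Low value was −0.13. Between the sedentary groups, Kdr in High Control was at a log2 fold change of −0.43 from Low Control (SE 0.22, FDR 0.704).

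For Flt1, the gene of the decoy receptor, the value in Low mice moved most with 1 mouse, D9. Low Control mice had 94.1 (D8), 163 (D9), 87.2 (D11) and 85.7 CPM (D98), and Low Run mice had 61.1 (D57), 101 (D61), 80.2 (D66) and 75.5 (D68). D9 was far above the other 3 controls, and 3 of 4 Low Run mice lay below all controls. The log2 fold change was −0.44 (SE 0.21, interval −0.89 to 0.02, FDR 0.377), and it was −0.17 (FDR 0.856) without D9 and −0.58 without D61. Among High mice, controls had 74.4 (D23), 85.1 (D25) and 85.9 CPM (D67), against 92.0 (D49), 87.9 (D52), 71.1 (D53) and 114 (D62) in High Run. With D62 the highest of its group, the log2 fold change was 0.16 (SE 0.23, interval −0.33 to 0.65, FDR 0.968), and it was 0.03 without D62 and 0.26 without D53. The interaction of 0.59 (SE 0.31, FDR 0.600) became 0.20 (FDR 0.984) without D9 and D62.

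**Figure D2:**
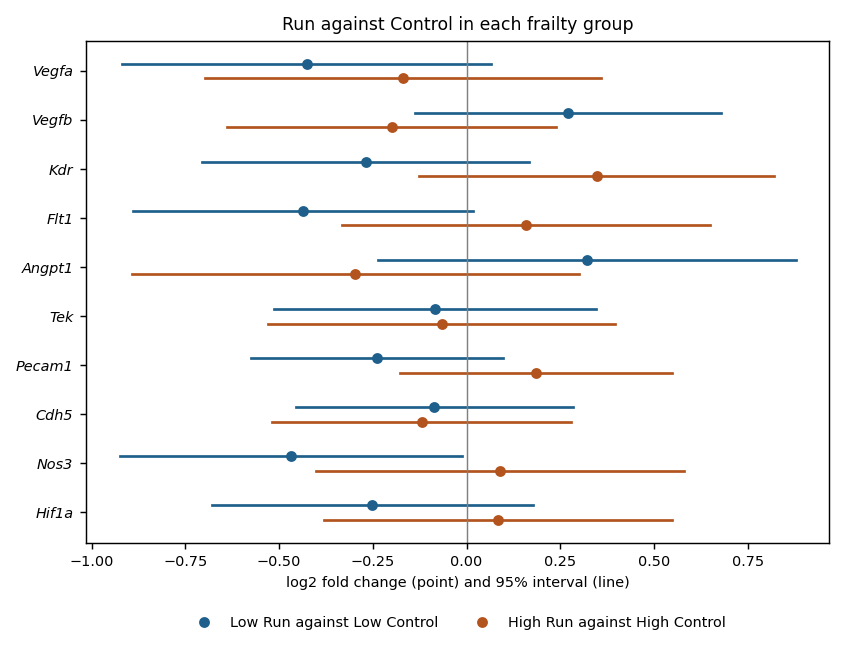
Log2 fold change of Run against Control (horizontal axis; points, with the 95% interval as a line) in Low mice (blue) and High mice (orange) for each gene. Every interval but that of Nos3 in Low mice includes 0, and Kdr, Flt1, Pecam1, Nos3 and Hif1a list below 0 in Low and above 0 in High mice, though in High mice Nos3 is at −0.12 without D62 and Hif1a at −0.0095 without D49.

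Angpt1 and Tek encode the ligand and the receptor of the stabilising Tie2 signal. Angpt1 was at 11.6 (D8), 6.17 (D9), 13.3 (D11) and 16.4 CPM (D98) in Low Control and at 16.8 (D57), 14.5 (D61), 16.1 (D66) and 11.9 (D68) in Low Run. It was 15.8 (D23), 17.8 (D25) and 13.5 CPM (D67) in High Control, and High Run mice had 16.0 (D49), 15.0 (D52), 12.5 (D53) and 7.59 (D62). The lowest mouse of all was D9, followed by D62, and the groups overlapped. For running the log2 fold change was 0.32 (SE 0.26, interval −0.24 to 0.88, FDR 0.556) in Low and −0.30 (SE 0.28, interval −0.89 to 0.30, FDR 0.958) in High mice. Single mice left out moved the Low value of Angpt1 from 0.10 (without D9) to 0.52 (D98) and its High value from −0.43 (D49) to −0.12 (D62). Without D9 and D62 the Low value was 0.10 (FDR 0.858), the High value was −0.12, and the interaction went from −0.62 (SE 0.38, FDR 0.613) to −0.22 (FDR 0.984).

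Tek had group means close to each other. Low Control mice had 18.6 (D8), 16.6 (D9), 27.1 (D11) and 20.2 CPM (D98), and Low Run mice had 15.3 (D57), 21.7 (D61), 22.1 (D66) and 18.7 (D68). High Control mice had 18.3 (D23), 17.7 (D25) and 22.9 CPM (D67), against 23.1 (D49), 22.3 (D52), 17.2 (D53) and 12.6 (D62) in High Run. The 4 group means lay between 18.8 and 20.6 CPM. Log2 fold changes were −0.08 (interval −0.51 to 0.34, FDR 0.861) in Low and −0.07 (interval −0.53 to 0.40, FDR 0.986) in High mice, and the interaction was 0.02 (interval −0.61 to 0.65). These values were −0.19, 0.08 and 0.26 without D9 and D62. Each changed sign with the mouse left out. The Low value ran from −0.19 without D9 to 0.07 without D11, and the High value from −0.19 without D49 to 0.08 without D62.

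The junction genes Cdh5 and Pecam1 mark endothelial cells in general. Cdh5 was nearly constant among Low Control mice, at 80.7 (D8), 77.9 (D9), 79.7 (D11) and 77.0 CPM (D98), and spread widely in Low Run, at 54.3 (D57), 93.4 (D61), 80.4 (D66) and 68.8 (D68). High Control mice had 76.3 (D23), 70.6 (D25) and 86.0 CPM (D67), and High Run mice had 73.6 (D49), 90.9 (D52), 52.2 (D53) and 68.9 (D62). The Run values lay on both sides of the controls in each frailty group. The mean was 78.8 ± 1.66 CPM (SD, n = 4) in Low Control and 74.2 ± 16.7 in Low Run. Log2 fold changes were −0.09 (interval −0.46 to 0.28, FDR 0.830) in Low and −0.12 (interval −0.52 to 0.28, FDR 0.973) in High mice. The Low value lay between −0.23 without D61 and 0.04 without D57, and the High value between −0.26 without D52 and 0.004 without D53. Voom gave 0.03 in High mice.

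Pecam1 was at 85.8 (D8), 106 (D9), 88.3 (D11) and 74.6 CPM (D98) in Low Control and at 63.6 (D57), 82.7 (D61), 74.8 (D66) and 79.7 (D68) in Low Run. The High Control mice had 76.6 (D23), 68.6 (D25) and 81.2 CPM (D67), and High Run mice had 71.9 (D49), 92.2 (D52), 70.1 (D53) and 109 (D62). In Low mice 3 of 4 controls exceeded every Run mouse, and in High mice a pair of Run mice exceeded every control. These gave a log2 fold change of −0.24 (SE 0.16, interval −0.57 to 0.10, FDR 0.471) in Low and 0.19 (SE 0.17, interval −0.18 to 0.55, FDR 0.958) in High mice. Of the values with single mice left out, those in Low mice went from −0.31 (without D98) to −0.15 (D9) and those in High mice from 0.04 (D62) to 0.27 (D53). The interaction of 0.42 (SE 0.23, FDR 0.600) was 0.19 (FDR 0.984) without D9 and D62. Of the groups of mice, High Run also had the widest range of blood and platelet genes, which summed to between 398 and 3890 CPM there and to between 327 and 501 CPM in High Control. In the High Run mouse with most Pecam1, D62, they summed to 1344 CPM, and in the High Run mouse with least, D53, to 3890 CPM. The part of blood cells in the Pecam1 values was not tested.

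Nos3, the gene of the enzyme that makes vasodilating nitric oxide in endothelium, had the smallest unadjusted p of the 10 in Low mice in edgeR. Low Control mice had 17.7 (D8), 29.0 (D9), 17.8 (D11) and 15.3 CPM (D98), and Low Run mice had 12.0 (D57), 14.2 (D61), 17.5 (D66) and 13.9 (D68). D9 was far above the rest, and 3 of 4 Run mice lay below all controls. The log2 fold change was −0.47 (SE 0.21, interval −0.92 to −0.01), with p = 0.0447 and FDR 0.367 in edgeR and an exact permutation p of 0.0571. Without D9 it was −0.24 (FDR 0.836), and without D66 it was −0.59. Controls of the High group had 18.4 (D23), 16.0 (D25) and 14.0 CPM (D67), against 14.1 (D49), 16.0 (D52), 14.6 (D53) and 24.0 (D62) in High Run. Apart from D62, the High Run mice lay within the control range, and the log2 fold change was 0.09 (SE 0.23, interval −0.40 to 0.58, FDR 0.983), turning to −0.12 without D62 and reaching 0.19 without D23. The interaction of 0.56 (SE 0.32, FDR 0.608) was 0.12 (FDR 0.994) without D9 and D62.

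Hif1a was the only gene of the group with a comparison in which the mice did not overlap. Sedentary High Control mice had 22.8 (D23), 22.4 (D25) and 25.2 CPM (D67), all below the Low Control mice at 26.4 (D8), 38.7 (D9), 32.0 (D11) and 28.1 CPM (D98). This share of 1 in 10 stands beside the 5.27% of all genes. The mean was 23.5 ± 1.53 CPM (SD, n = 3) against 31.3 ± 5.46 (n = 4), with a log2 fold change of −0.42 (SE 0.22, interval −0.88 to 0.05, FDR 0.704 in edgeR) and an exact permutation p of 0.0571. Without D9 the fold change was −0.30 (FDR 0.9999). Run mice did not keep this order, with 17.8 (D57), 34.99 (D61), 30.6 (D66) and 21.8 CPM (D68) in Low Run and 29.3 (D49), 25.3 (D52), 18.5 (D53) and 26.5 (D62) in High Run. The response to running was −0.25 (SE 0.20, FDR 0.548) in Low and 0.08 (SE 0.22, FDR 0.983) in High mice, with an interaction of 0.34 (SE 0.30, FDR 0.688). Here the Low value ran from −0.43 without D61 to −0.10 without D57, and was −0.14 without D9. The High value ran from −0.0095 without D49 to 0.20 without D53. The interaction was 0.19 without D9 and D62.

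Some mice were high or low in many of the 10 genes at once, as in the map of deviations by mouse. D57 was the lowest of all 15 mice for Vegfa, Flt1, Pecam1, Nos3 and Hif1a, and D53 was the lowest for Cdh5. D53, D57 and D68 were also the mice with the highest second component. D9 and D62 instead split the group. Their Flt1 (163 and 114 CPM), Nos3 (29.0 and 24.0 CPM) and Pecam1 (106 and 109 CPM) lay above the other 13 mice, whose highest values were 101, 18.4 and 92.2 CPM. Their Angpt1 (6.17 and 7.59 CPM) and Vegfb (69.8 and 79.4 CPM) lay below the other 13, whose lowest values were 11.6 and 81.1 CPM. Vegfa did not follow this pattern, being highest of all in D9 and 14th of 15 in D62, and Cdh5 ranked 7th and 12th.

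Genes of other cell types differed in the same mice. The median over 6 fibroblast genes (such as Col1a1 and Dcn) lay at −1.793 and −1.596 log2 units from the mean of all mice in D9 and D62, where the other mice lay between −0.32 and 0.99. For 22 endothelial genes outside the group, the median deviation was 0.24 in D9 and 0.27 in D62, against −0.22 to 0.10 elsewhere, and their sum was 2237 and 1833 CPM, against 1054 to 1543 CPM. The part of tissue composition in the values of D9 and D62 was not tested.

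**Figure D3:**
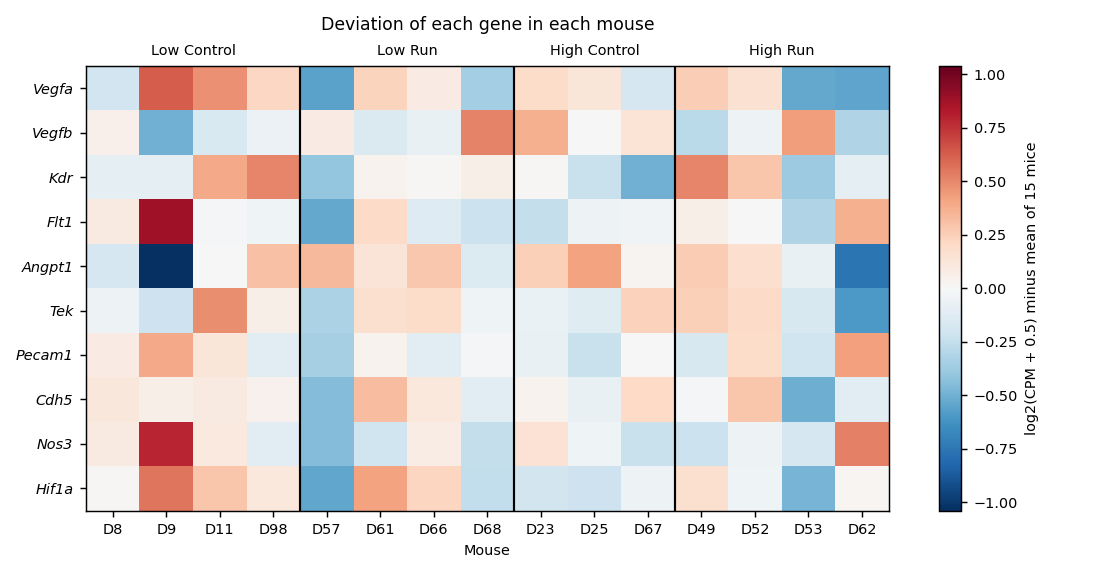
Deviation of each gene (rows) in each mouse (columns, ordered by group) from its mean over 15 mice, as log2(CPM + 0.5) (colour, red above and blue below the mean). D9 and D62 are red in Flt1, Pecam1 and Nos3 and blue in Angpt1 and Vegfb, while D57 is blue in 8 of the 10 genes, all but Vegfb and Angpt1.

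Pairs of the 10 genes were compared across the 15 mice, with 6 pairs chosen and the permutation p-values adjusted over them by Benjamini-Hochberg. All points share the scaling of their library, and 10 genes of the same mice are not independent. Among these 6 pairs Vegfa and Hif1a varied together most closely, with Pearson's r = 0.77 (p = 0.00091, adjusted p = 0.00546) and Spearman's rho = 0.75 (p = 0.00194, adjusted p = 0.0116). Their r was 0.76 within groups, 0.80 without the 2 mice farthest from the median of Vegfa (D57 and D62) and 0.80 without D9 and D62. It was 0.57 when D57 and D53 were left out along with D9 and D62. Vegfa and its receptor gene Kdr had r = 0.58 (permutation p = 0.0246, adjusted p = 0.0492) and rho = 0.55 (p = 0.0355, adjusted p = 0.0710), with r = 0.65 within groups and 0.52 without D57 and D62. Cdh5 and Tek had r = 0.58 (permutation p = 0.0240, adjusted p = 0.0492) and rho = 0.60 (p = 0.0202, adjusted p = 0.0606), with r = 0.56 within groups and 0.55 without the farthest mice, D53 and D57.

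The other pairs did not pass an adjusted p of 0.05 by r. Cdh5 and Pecam1 had r = 0.46 (permutation p = 0.0857, adjusted p = 0.129) and rho = 0.52 (p = 0.0504, adjusted p = 0.0756), with r = 0.52 within groups. This relation rested on single mice in both directions. It was 0.09 without D53 and D57, and 0.77 (adjusted p = 0.00495) without D9 and D62. Cdh5 and Kdr had r = 0.41 (permutation p = 0.125, adjusted p = 0.151) and rho = 0.22 (p = 0.435, adjusted p = 0.435), with r = 0.50 within groups and −0.02 without D53 and D57. The receptor genes Kdr and Flt1 had r = 0.15 (permutation p = 0.595, adjusted p = 0.595) and rho = 0.22 (p = 0.429, adjusted p = 0.435), with r = −0.08 within groups, 0.19 without D67 and D98, and 0.47 without D9 and D62.

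Pairs outside these 6 are described with no test, and some had a larger r than Vegfa and Hif1a. Flt1 and Pecam1 had r = 0.81, Flt1 and Nos3 0.81, Pecam1 and Nos3 0.80, and Flt1 and Hif1a 0.79. Angpt1 went the other way, with r = −0.82 against Pecam1 and −0.79 against Nos3. D9 and D62 carried much of this. Without them r was 0.62, 0.35, 0.48 and 0.83 for the first 4 pairs and −0.52 and −0.08 for those of Angpt1.

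**Figure D4:**
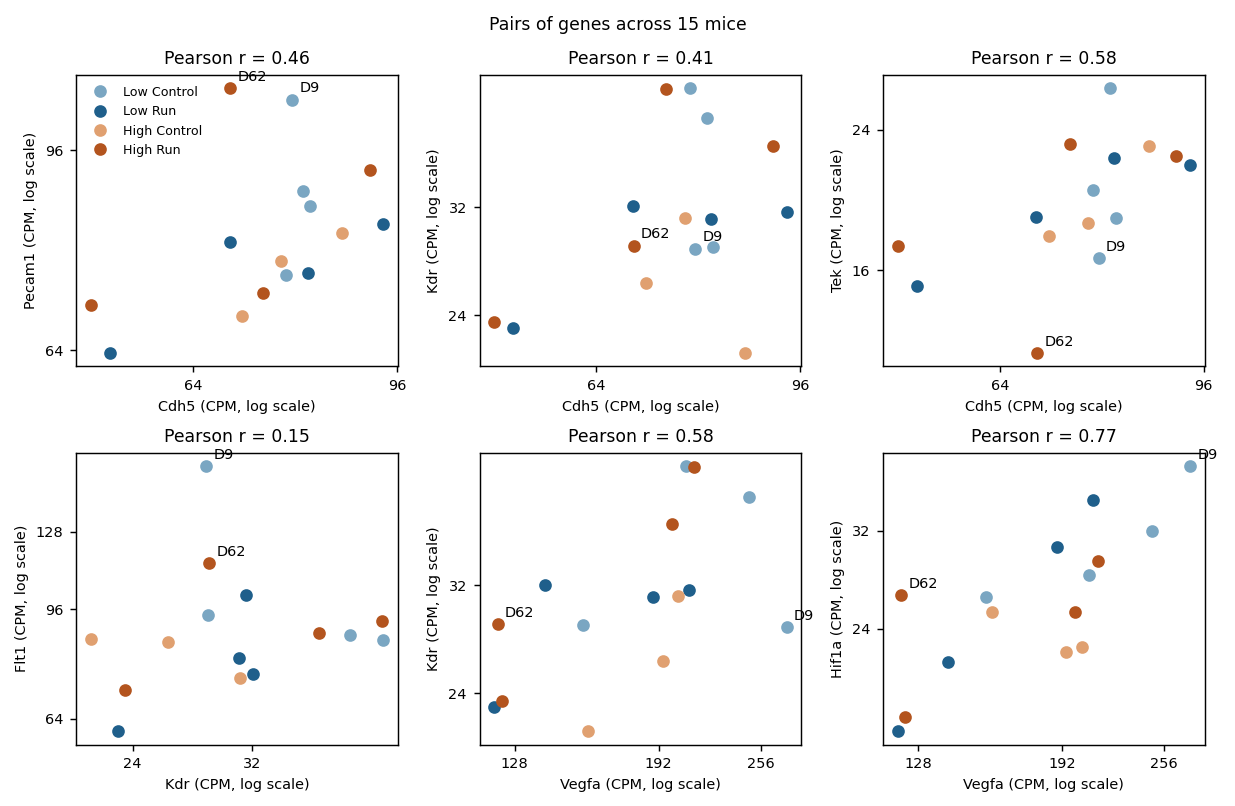
CPM of the 6 pairs of genes in 15 mice on logarithmic axes, coloured by group, with mice D9 and D62 named. The points of Vegfa and Hif1a rise together (r = 0.77), and in Cdh5 against Pecam1 the named mice lie above the line of the other mice.

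Genes whose log2 CPM was most like that of a member over the 15 mice were listed without a test. For Cdh5 these were Slc41a1 (r = 0.93), Ushbp1 (0.91), Vps39 (0.90), Thtpa (0.89) and Tango6 (0.89). For Vegfa they were Tstd2 (r = 0.92), Arel1 (0.91), Slc6a6 (0.90), Klhl18 (0.90) and Slc22a23 (0.90). None of the 10 genes was among them.

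The wider endothelial list was read against the 10 genes. It held 22 markers outside the group, such as Tie1, Erg, Emcn and Cldn5, and edgeR called 0 of them in any comparison. In Low Run against Low Control 17 were lower and 5 higher, with a median log2 fold change of −0.13, and 2 lower genes had an unadjusted p under 0.05. Of all genes, 48.1% were lower and 7.52% were lower at that p. These 2 were Rgcc, a cell cycle regulator enriched in capillaries (log2 fold change −1.04, FDR 0.360), and Ptprb, the phosphatase that restrains Tie2 (−0.29, FDR 0.368). Rgcc stood at 376.5 CPM in D9 and at most 159 CPM in the other Low Control mice, and its value without D9 and D62 was −0.35. In High Run against High Control 17 were higher and 5 lower, with a median of 0.13, where 57.2% of all genes were higher. Only Sox18, an endothelial transcription factor, had an unadjusted p under 0.05 there (0.49, FDR 0.956), as did 5.18% of all genes. In the interaction 20 of 22 were positive, with a median of 0.31, against 53.1% of all genes. In High Control against Low Control 20 of 22 were lower, with a median of −0.16, where 52.8% of all genes were lower. Without D9 and D62 these counts were 16 lower in Low mice, 16 higher in High mice, 15 positive in the interaction and 18 lower in High Control, with medians of −0.11, 0.07, 0.17 and −0.07. Single mice moved the medians in the other direction too, to −0.20 in Low mice without D61, to 0.26 in High mice without D53, where 21 were higher, and to −0.25 in High Control without D98.

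Markers of vessel types were called in 0 cases. Of 12 arterial, capillary and venous genes tested, 8 were lower in Low Run (median −0.17) and 11 higher in High Run (median 0.44), where 48.1% of all genes were lower and 57.2% higher, and Sele was not tested for low counts. Without D9 and D62, whose median deviations for this list were above those of all other mice, 6 were lower in Low Run (median −0.03) and 10 higher in High Run (median 0.28), whereas without D68 10 were lower in Low Run (median −0.35). At an unadjusted p under 0.05 in Low mice were Sema3g, an arterial gene (−0.74, FDR 0.358), and Vcam1, a leukocyte adhesion gene (0.60, FDR 0.358), beside Rgcc. Of all genes, 13.4% had such a p in Low mice, and 7.52% did so in the lower direction. Sema3g was at 41.0 CPM in D9 and at most 21.1 CPM in the other Low Control mice, and its value without D9 and D62 was −0.36. In High mice Selp, which captures leukocytes on venous endothelium, reached that level (0.99, FDR 0.956). All 6 lymphatic genes were higher in High Run (median 0.40), 3 of them at an unadjusted p under 0.05, with Lyve1 (0.56, FDR 0.956) and Reln (0.54, FDR 0.956) of smallest p. Of all genes, 57.2% were higher there, and 5.18% had such a p in either direction. Without D9 and D62 all 6 were again higher (median 0.44), 2 of them at that p, and the median was 0.27 without D23 and 0.74 without D25. In Low Run 4 of 6 were lower (median −0.21), among them Flt4, the receptor of VEGF-C (−0.54, FDR 0.358). Of 12 pericyte and smooth muscle genes, 7 were higher in Low Run and 6 in High Run, with medians of 0.06 and −0.03. Without D68 the Low median of that list was −0.12, and without D23 the High median was 0.06.

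The rest of the VEGF and Tie pathways also held 0 called genes. Of 6 further VEGF ligands and receptors, 4 were higher in Low Run (2 without D61) and 4 in High Run. Flt4 alone had an unadjusted p under 0.05, in Low mice, where 13.4% of all genes had such a p. Of 5 further genes of the Tie pathway, 4 were lower in Low Run, Ptprb with the smallest p, and Svep1, whose protein binds the related receptor Tie1, was at 0.58 in High Run (FDR 0.956). Of 12 genes that restrain vessel growth, 7 were lower in each running comparison, and Adamts1, a secreted protease, had the smallest p in Low mice (−0.53, FDR 0.358). Adamts1 ran from 44.4 to 61.4 CPM in Low Control, from 33.4 to 47.3 in Low Run, from 26.9 to 37.6 in High Control and from 25.4 to 36.8 in High Run. Its High Control mice lay below Low Control without overlap (−0.74, FDR 0.704), as held for 5.27% of all genes. Of 11 other nitric oxide genes, 6 were lower in each running comparison. Nos1, the nitric oxide synthase of muscle fibres, ran from 129 to 141 CPM in Low Control and from 54.1 to 107 in Low Run without overlap (−0.70, FDR 0.358), where 3.59% of all genes were without overlap in that direction.

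Genes around HIF showed 0 calls as well. Of 9 HIF subunits and regulators other than Hif1a, 7 were lower in Low Run (median −0.26, and −0.17 without D9) and 5 in High Run (7 without D62). Arnt, the partner of HIF alpha subunits, was at −0.69 in Low mice (FDR 0.358), where D9 had 154 CPM and the other controls at most 80.2 CPM, and at −0.32 without D9 and D62. In High mice Egln1, a prolyl hydroxylase that marks HIF alpha for breakdown, was at −0.38 (FDR 0.956) and Egln3, a hydroxylase itself induced by HIF, at 1.234 (FDR 0.956). Egln3 ran from 94.7 to 446 CPM in High Run and from 76.7 to 90.7 in High Control, without overlap. The same held for 3.47% of all genes in that direction, and the value of Egln3 without D9 and D62 was 0.39. Egln1 did not overlap either, at 261 to 298 CPM in High Run and 315 to 376 in High Control. Of all genes, 3.6% were lower without overlap there, and Egln1 was at −0.36 without D9 and D62. Of 13 HIF target genes other than Vegfa, 7 were higher in each running comparison, with medians of 0.03 and 0.16. These medians were −0.01 (Low, without D61) and −0.02 (High, without D62). Kdm3a alone reached an unadjusted p under 0.05, in Low mice (−0.69, FDR 0.358, and −0.33 without D9 and D62). Of all genes, 13.4% had such a p there. Kdm3a was at 38.5 CPM in D9 and at most 20.1 CPM in the other Low Control mice. Of 5 regulators that raise Vegfa in muscle, such as Ppargc1a, 3 were lower in Low Run and all 5 in High Run, with medians of −0.12 and −0.14, the former turning to 0.16 without D11 and the latter running from −0.24 without D25 to −0.09 without D23.

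Blood, macrophage and adipocyte markers had larger median differences than the 10 genes over all mice, and again 0 were called. For macrophage genes in Low Run this did not hold without D9 (0.14 against −0.16 for the 10 genes). The 8 blood and platelet genes tested had a median log2 fold change of −0.998 in Low Run and 2.00 in High Run, Gp1bb being untested for low counts. Single mice carried much of both medians, which were −0.38 without D11 (Low Control) and 1.18 without D53 (High Run). In D11 Alas2 stood at 162 CPM, against at most 62.3 CPM in the other Low Control mice. Alas2, of red cell haem synthesis, was at 2.32 (FDR 0.956) and Hbb-bs, a globin gene, at 2.13 (FDR 0.956) in High mice, and Ptprc, the leukocyte gene CD45, at 1.08 (FDR 0.358) in Low mice. Ptprc ran from 3.19 to 6.91 CPM in Low Control and from 5.04 to 22.1 CPM in Low Run, with overlap. Globin genes are near copies of each other, so their counts are uncertain singly. The blood genes summed to 508 to 2405 CPM in Low Control and 274 to 853 CPM in Low Run. All 8 macrophage genes were higher in High Run (median 0.77) and 7 in Low Run (median 0.29, and 0.14 with 4 of 8 higher without D9). Cd68 was at 1.01 (FDR 0.956) in High mice, C1qa at 0.79 in High and 0.63 in Low mice, and Cd163 at −0.59 (FDR 0.358) in Low mice. Of 6 fibroblast genes, 5 were higher in Low Run (median 0.60) and 4 in High Run (median 0.01). D9 and D62 were far below the other mice for these genes, and without both the medians were 0.32 and 0.32, with 5 and all 6 genes higher. The Low median was also 0.275 without D66 and 0.88 without D98, and the High median was −0.19 without D52. All 5 adipocyte genes were lower in each, with medians of −0.57 and −0.44, the latter going from −0.71 without D53 to 0.18 without D25, and Cidec (−1.04, FDR 0.358) and Lep (−1.65, FDR 0.358) had the smallest p in Low mice. Of 10 fibre genes, 8 were higher in Low Run and 4 in High Run. Among these, Myh4, the fastest myosin, was at −0.48 (FDR 0.358) in Low and −0.44 (FDR 0.956) in High mice. The slow fibre genes Tnni1 (0.30 in Low and 0.93 in High mice) and Tnnt1 (0.34 and 0.65) were positive in both. Without D9 and D62 Tnni1 was at 0.19 in Low and 0.68 in High mice, and Tnnt1 at 0.26 and 0.48. The part of these cell types in the values of the 10 genes was not tested.

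**Figure D5:**
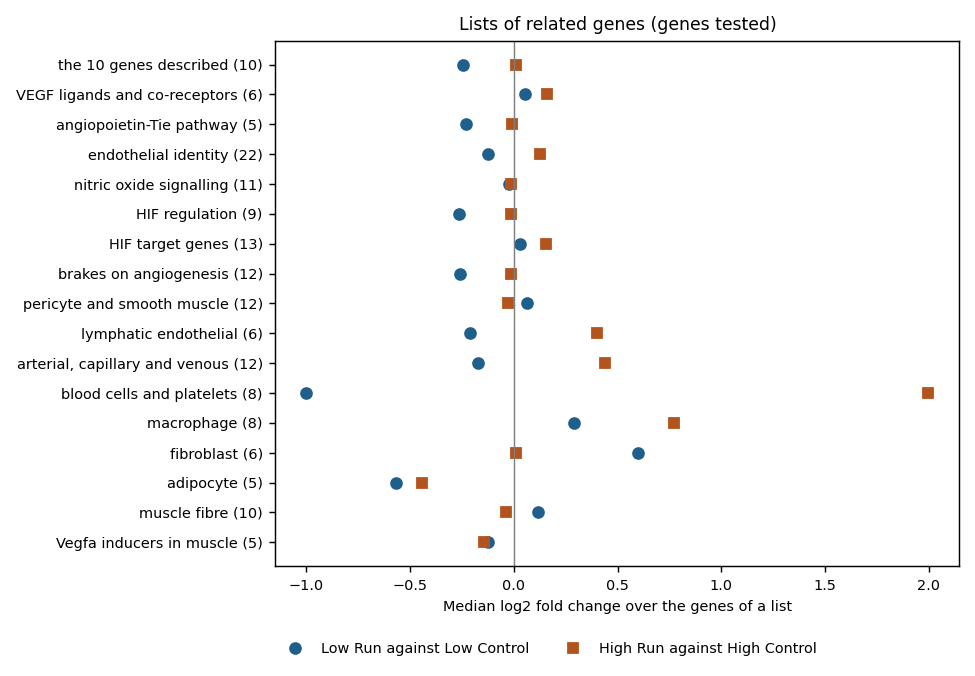
Median log2 fold change over the tested genes of each list (rows, number of genes in brackets) in Low Run against Low Control (circles) and High Run against High Control (squares). The 10 genes described lie at −0.25 and 0.01 and the endothelial list at −0.13 and 0.13, while blood cells and platelets lie at −0.998 and 2.00. Nearer to the 10 genes lie the Tie pathway (−0.23 and −0.01), HIF regulation (−0.26 and −0.01) and the genes that restrain vessel growth (−0.26 and −0.01).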

How the data were processed

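Gastrocnemius RNA was sequenced in 15 mice. Per the labels and the methods, the authors mapped reads to mm10 (STAR 2.7.9a), then counted proper pairs on the gene strand with featureCounts, whose Subread version is given as 2.0.3 in the submitters' processing notes and differently in the methods. The authors deposited whole-number counts per gene without normalization, and log2-scale variance-stabilized values from DESeq2. Mitochondrial genes were left out upstream, so shares are of non-mitochondrial counts.

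The deposited counts were analysed in R 4.3.3 with edgeR 4.0.16 (filterByExpr, TMM, 1 mean per group over all 15 mice, quasi-likelihood F-test, FDR 0.1), with DESeq2 1.42.0 and limma 3.58.1 as alternatives. CPM use TMM library sizes. Exact permutation tests, two-sided, on log2(CPM + 0.5) and correlations (100000 permutations) used Python 3.11.15 and SciPy 1.17.1. The code was tested on simulated data. Gene models were GENCODE M21 (GRCm38), and windows before starts came from RefSeq. The genes named were the 10 members, and from each context list those called or, in either running comparison, up to 2 with the smallest unadjusted p under 0.05, and the 5 most like Cdh5 and Vegfa. Other genes appear only as examples of what a list holds. Members and lists were chosen with earlier results of these data known. Alternatives were other tests, scalings (RLE, upper quartile), count filters (none, or 10 counts in every mouse), only the groups compared, an FDR of 0.05, length and GC offsets, a pseudocount of 2, and leaving out mice. Leaving out D9 and D62 together was added after seeing the data.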

Additional observations from a re-analysis of the deposited data

Results flagged for a closer look

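Single values were compared with Dixon's criterion in the 30 sets of 4 mice given by the 10 genes and the 3 groups of that size, where chance alone passes the limit about 1 time in 20. Flt1 in Low Control passed it, with mouse D9 at 163.2 CPM and the next mouse at 94.1 CPM, a gap of 0.891 of the range. Kdr in Low Run passed it from below, with mouse D57 at 23.16 CPM and the next mouse at 31.03 CPM, a gap of 0.882 of the range.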

How the results depend on the processing

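None of the 10 genes was called under any alternative run, and their smallest adjusted p was 0.227 (Kdr, High Run against High Control, voom with quality weights). Of 1180 log2 fold changes listed over the alternatives, 77 changed sign. The total includes those listed for the stricter FDR limit, which alters only the calls and leaves every fold change as it was. Over all genes, where edgeR called 0 in each comparison, DESeq2 called 10 for Low Run against Low Control, 15 for High Run against High Control and 106 for the run main effect. Without a count filter the calls were 86, 19 and 81 in the same order, 4 for the interaction and 6 for High Run against Low Run, and voom called 45 in High mice. The cause was not tested. With voom the Low values were −0.26 for Vegfa, 0.10 for Vegfb, −0.16 for Flt1, 0.18 for Angpt1, −0.14 for Pecam1, −0.19 for Nos3, −0.08 for Hif1a and −0.03 for Cdh5, and in High mice the sign turned for Vegfa (0.06), Tek (0.10), Cdh5 (0.03) and Nos3 (−0.02), while Kdr was at 0.53. With length and GC offsets, Flt1 was at −0.23 in Low mice and 0.30 in the interaction, and Vegfb and Kdr in Low mice at 0.13 and −0.13. Cdh5 and Pecam1 passed (r = 0.77) when D9 and D62 were left out together. By rho, Vegfa with Kdr and Cdh5 with Tek passed on variance-stabilized values (permutation test, adjusted p = 0.0252 for each). Without D9 and D62 they did so too (permutation test, adjusted p = 0.00962 and 0.0459). No paired analysis was possible because the mice of different groups share no replicate number. The design of 4 against 4 or 3 against 4 mice limits exact permutation tests between a pair of groups to p = 0.0286 at best.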
